A study of Homo sapiens with 12 samples.

Results

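The core protein genes of the spliceosomal small nuclear ribonucleoproteins (snRNPs) were followed across 4 lines of MIA PaCa-2, an established human pancreatic carcinoma cell line. The members were chosen by gene symbol alone, as the SNRP, SNRNP, SF3A, SF3B, PRPF and LSM families, which gave 54 of the 63086 genes in the table. All 54 passed the minimum mean of 10 normalised counts, as did 15987 genes in total. RNA-seq had been run on 12 libraries, 3 biological replicates for each line, to ask which transcripts differ when TIMP1 is lost, which encodes a secreted inhibitor of matrix metalloproteinases. WT was the unmodified line. CRISPR Control had been through CRISPR-Cas9 editing and carried a silent change only. TIMP1 KO 1 and TIMP1 KO 2 had been edited in exon 4 of TIMP1, each with its own guide RNA. The cells had been grown in RPMI medium with fetal calf serum. Each knockout line was 1 clone, so an effect of the lost gene and a difference between clones cannot be told apart.

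Spliceosomal snRNPs pair a small nuclear RNA (snRNA) with proteins, and they remove introns from pre-mRNA. A ring of Sm proteins is loaded on U1, U2, U4 and U5 snRNA, while U6 carries a ring of LSM proteins. The U1 snRNP binds the start of the intron, and the U2 snRNP, with its SF3A and SF3B subunits, binds the branch site. The U4/U6.U5 tri-snRNP then joins and is remodelled into the catalytic machine. A minor spliceosome, with U11 and U12 in place of U1 and U2, removes a rare class of introns. The symbol rule also took proteins that act beside these particles, such as the ubiquitin ligase PRPF19 and the LSM proteins of histone mRNA processing and mRNA decay. It left out tri-snRNP subunits with other names, such as EFTUD2, which are described with the partner genes.

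The libraries held 26908701 to 36093563 reads in genes, and replicates of a line correlated with r of 0.99 to 0.993 over genes. TIMP1 itself, the check of the labels, had 3553 ± 274 normalised counts in WT (SD, n = 3), 2690 ± 357 in CRISPR Control, 1600 ± 32.8 in TIMP1 KO 1 and 1161 ± 28.8 in TIMP1 KO 2. All 6 knockout libraries lay below the other 6 for TIMP1. Of 9 markers of other cell types, 7 had a mean under 10 normalised counts and INS was at 0, and their summed level was 32.4 to 89.4 in all libraries. For 7 epithelial and line markers, the summed level was 265864 to 286241 in WT and 107593 to 135777 in CRISPR Control. It was 308241 to 315355 in TIMP1 KO 1 and 250281 to 270849 in TIMP1 KO 2. In CRISPR Control 4 of the 7 were lower than in WT and 0 higher, beside 26.3% and 27.2% of all genes. The summed level of 12 cell division markers was 119842 to 121555 in WT, 112380 to 118631 in CRISPR Control, 92698 to 94571 in TIMP1 KO 1 and 51770 to 54079 in TIMP1 KO 2. All 12 of these markers were lower in TIMP1 KO 2 than in WT, and 7 of them were lower in TIMP1 KO 1, beside 27.9% and 17.5% of all genes. In CRISPR Control 4 were lower than in WT and 2 higher, beside 26.3% and 27.2% of all genes. Their part in the differences in snRNP genes below was not tested. In bulk RNA, fewer cells of a kind and less RNA per cell cannot be told apart.

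Lower levels than in WT were found for most snRNP protein genes in TIMP1 KO 2 and for fewer of them in TIMP1 KO 1. Against WT, 34 of the 54 members were lower and 1 was higher in TIMP1 KO 2, with a median log2 fold change of -0.37 (limma on log2(normalised count + 1), Benjamini-Hochberg adjusted p under 0.05). Of all 15987 genes tested, 27.9% were lower and 27.1% were higher in the same comparison, with a median of -0.01. In TIMP1 KO 1, 18 members were lower than in WT and 0 were higher, with a median of -0.16. The background there was 17.5% lower and 18.0% higher, with a median of 0.00. The share of lower members was thus 63.0% in TIMP1 KO 2 and 33.3% in TIMP1 KO 1. With all libraries kept, each lay above the share of all genes. The changes were moderate: the median member fell by 22.8% from WT in TIMP1 KO 2 and fell by 10.3% in TIMP1 KO 1. Among genes with a mean of at least 50, which all members reached, the background was 32.8% lower in TIMP1 KO 2 and 19.7% in TIMP1 KO 1. With libraries scaled to equal totals, 30 members were lower and 3 higher in TIMP1 KO 2, with a median of -0.28. All genes then had 21.8% lower and 32.7% higher, with a median of 0.09.

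The count for TIMP1 KO 1 rested on small differences and moved with single libraries. It was 10 without WT replicate 1 and 11 without WT replicate 3. It was 8, 11 and 11 of the 54 members without replicates 1, 2 and 3 of TIMP1 KO 1, respectively. All genes then had 14.1%, 14.1% and 14.6% lower. They had 14.3% and 14.0% lower without WT replicates 1 and 3. The 8 of 54 were thus near the share of all genes. The count for TIMP1 KO 2 stayed between 34 and 37 whichever library was left out.

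**Figure D1:**
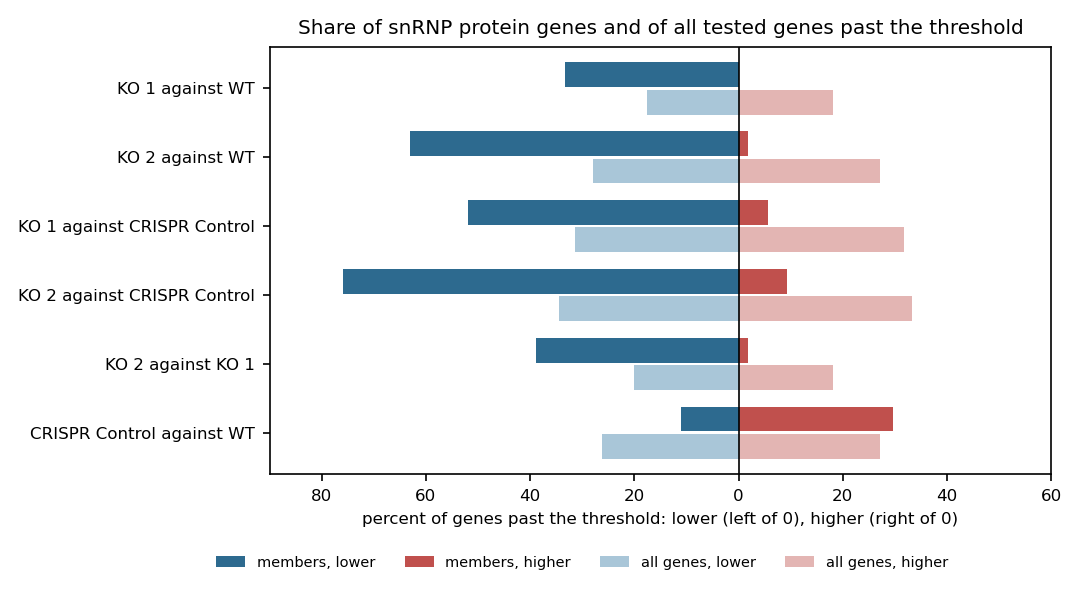
Percent of the 54 snRNP protein genes (dark bars) and of all 15987 tested genes (pale bars) past the threshold in each comparison of 2 lines, lower to the left of 0 and higher to the right. Lower members exceeded the background share in the 5 comparisons that involve a knockout line, and in CRISPR Control against WT 29.6% of members were higher and 11.1% lower.

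CRISPR Control was compared with WT in the same way. Here 16 members were higher and 6 were lower, with a median log2 fold change of 0.05, against a background of 27.2% higher and 26.3% lower. The share of higher members, 29.6%, was near the background, while that of lower members, 11.1%, was under it. Without CRISPR Control replicate 2, 12 members were higher and 7 lower, beside 24.8% and 23.8% of all genes. The median had no firm direction: it was -0.00023 without WT replicate 3, 0.02 without CRISPR Control replicate 2, and 0.08 without WT replicate 1 or CRISPR Control replicate 1. Against CRISPR Control, 28 members were lower and 3 higher in TIMP1 KO 1 (background 31.3% and 31.7%, member median -0.23). In TIMP1 KO 2, 41 were lower and 5 higher than in CRISPR Control (background 34.4% and 33.3%, member median -0.39). The comparisons with WT share the 3 WT libraries, and those with CRISPR Control share its 3 libraries.

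With the knockout lines averaged against the mean of WT and CRISPR Control, 39 members were lower and 2 were higher, PRPF39 and SNRNP35. The background was 33.0% lower and 32.9% higher, and the median member stood at a log2 fold change of -0.29. For 18 members, all 6 knockout libraries lay below all 6 others, and for 0 members did they all lie above (12.4% of all tested genes lay below in this way and 12.3% above). Log2 fold changes in this contrast ran from -0.91 to 0.32 over members and from -9.17 to 6.63 over all genes. Among members, a change of at least 1 was reached by LSM3, LSM11, SNRPF, SF3B6 and PRPF19, each against CRISPR Control.

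**Figure D2:**
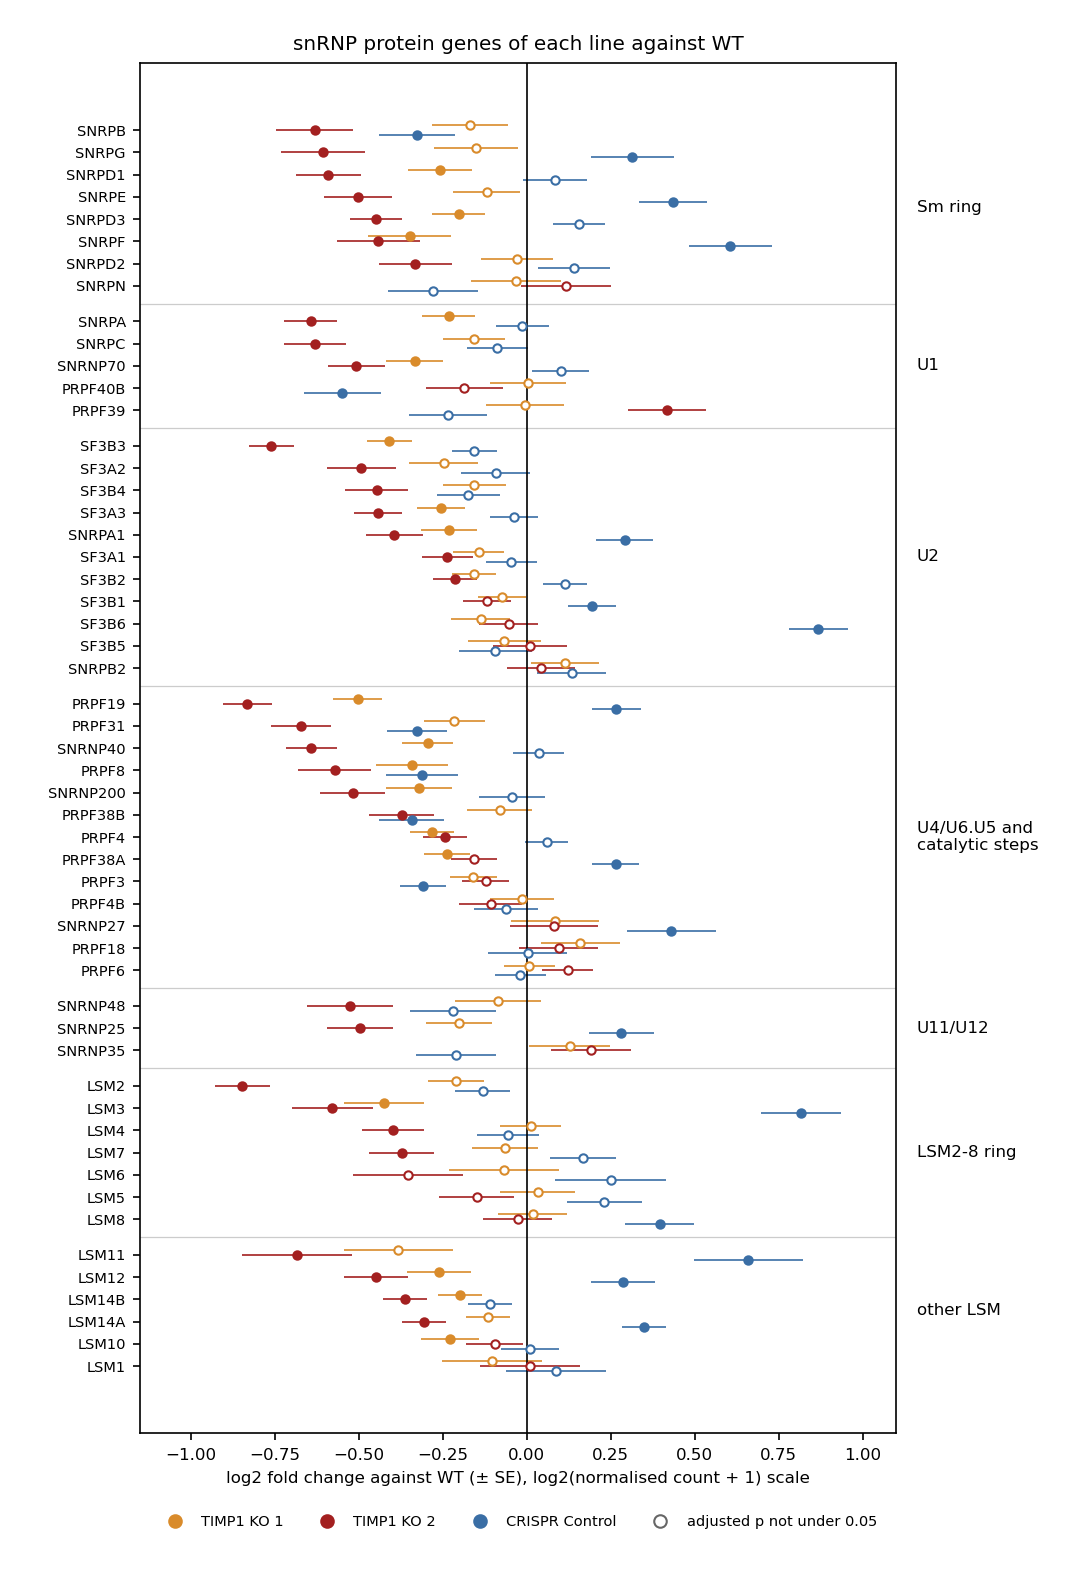
Log2 fold change (± SE, limma, n = 3 libraries a line) of 53 members against WT, grouped by role, for TIMP1 KO 1 (orange), TIMP1 KO 2 (red) and CRISPR Control (blue). Filled points passed the adjusted p threshold of 0.05. Red points lie left of 0 for 44 of the 53, and the blue points of LSM3, SF3B6, LSM11 and SNRPF lie farthest to the right.

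The Sm ring was lower than WT in TIMP1 KO 2 in 7 of 8 members (87.5%, beside 27.9% of all genes). The exception was SNRPN, which encodes SmN, the close paralogue of the SmB protein of SNRPB. In length-scaled terms SNRPB had the highest level of all members in WT, 9547 normalised counts per kb of its canonical transcript, and SNRPN had the lowest level of the ring, 210. SNRPB was measured at 11026, 9920 and 10043 normalised counts in WT, 6656, 8618 and 9706 in CRISPR Control, 9717, 8537 and 9310 in TIMP1 KO 1, and 5812, 6623 and 7673 in TIMP1 KO 2. The TIMP1 KO 2 libraries lay below those of WT and TIMP1 KO 1 but overlapped with CRISPR Control, which was itself lower than WT (log2 fold change -0.33 ± 0.11, SE; limma adjusted p = 0.022). Against WT, SNRPB had -0.63 ± 0.11 on the log2 scale in TIMP1 KO 2 (limma adjusted p = 0.00012), while SNRPN had 0.12 ± 0.13 (adjusted p = 0.48). SNRPN values ran from 202 to 369 normalised counts over the 12 libraries, and its exons overlap those of SNURF and SNHG14 on the same strand, so its reads may be shared.

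SNRPD1 (SmD1) and SNRPD3 (SmD3) were lower in both knockout lines and did not pass the threshold in CRISPR Control. SNRPD1 had 2411, 2457 and 2170 normalised counts in WT, 2237, 2932 and 2337 in CRISPR Control, 1947, 2069 and 1865 in TIMP1 KO 1, and 1701, 1455 and 1520 in TIMP1 KO 2. All knockout libraries lay below the others, and the values of TIMP1 KO 2 lay below those of TIMP1 KO 1. The log2 fold change against WT was -0.26 ± 0.10 in TIMP1 KO 1 (limma adjusted p = 0.042) and -0.59 ± 0.10 in TIMP1 KO 2 (adjusted p = 3.8e-05). SNRPD3 showed the same order at a lower level, with 919, 868 and 837 in WT, 953, 990 and 978 in CRISPR Control, 750, 763 and 765 in TIMP1 KO 1, and 645, 610 and 665 in TIMP1 KO 2. Its log2 fold changes were -0.20 ± 0.08 in TIMP1 KO 1 (limma adjusted p = 0.048) and -0.45 ± 0.08 in TIMP1 KO 2 (adjusted p = 7.5e-05). The call of SNRPD3 in TIMP1 KO 1 was lost without any 1 of the WT, TIMP1 KO 1 or TIMP1 KO 2 libraries, with adjusted p of 0.051 to 0.16. That of SNRPD1 was lost without WT replicates 1 or 2 or any library of TIMP1 KO 1, with adjusted p of 0.05 to 0.14.

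SNRPF, SNRPE and SNRPG, which sit side by side in the Sm ring, were higher in CRISPR Control than in WT and lower in TIMP1 KO 2. In CRISPR Control each was highest in replicate 2. SNRPE had 2768 normalised counts there and SNRPG had 3302, while the other libraries of that line had at most 2126 and 2190. SNRPF, with the largest change of the ring between knockout and other lines, had 1626, 1454 and 1314 normalised counts in WT and 1934, 2793 and 2030 in CRISPR Control. It had 1201, 1204 and 1040 in TIMP1 KO 1, and 986, 1019 and 1235 in TIMP1 KO 2. The lines of SNRPF separated into CRISPR Control at the top, WT in the middle and both knockouts, which overlapped each other, at the bottom. Against WT the log2 fold changes were 0.61 ± 0.12 in CRISPR Control (limma adjusted p = 0.00045), -0.35 ± 0.12 in TIMP1 KO 1 (adjusted p = 0.035) and -0.44 ± 0.12 in TIMP1 KO 2 (adjusted p = 0.0056). The TIMP1 KO 1 call was lost without WT replicates 1 or 2 or any 1 of its own libraries, with adjusted p of 0.051 to 0.16. SNRPE and SNRPG reached -0.50 ± 0.10 and -0.61 ± 0.12 in TIMP1 KO 2 and 0.44 ± 0.10 and 0.31 ± 0.12 in CRISPR Control. Neither passed in TIMP1 KO 1 (limma adjusted p = 0.39 and 0.37). SNRPG has 20 named pseudogenes whose summed level was 13.6% of its own, the highest such share among members, so reads may have been split between them. SNRPD2 (SmD2) was lower in TIMP1 KO 2 only by the threshold, at -0.33 ± 0.11 (limma adjusted p = 0.015).

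Among the U1 proteins, the 3 that are specific to the human U1 particle, SNRNP70, SNRPA and SNRPC, were lower in TIMP1 KO 2. SNRNP70 (U1-70K), which binds the first stem-loop of U1 snRNA, had 5698, 5118 and 5234 normalised counts in WT, 4991, 6067 and 6221 in CRISPR Control, 4302, 4206 and 4215 in TIMP1 KO 1, and 3470, 3700 and 4142 in TIMP1 KO 2. SNRPA, another U1 snRNA binder, had 2364, 2152 and 2248 in WT, 1998, 2290 and 2433 in CRISPR Control, 1882, 1882 and 1989 in TIMP1 KO 1, and 1376, 1492 and 1463 in TIMP1 KO 2. For both genes all 6 knockout libraries lay below the 6 others, for SNRPA by a narrow margin of 1989 against 1998. SNRNP70 changed by -0.33 ± 0.09 in TIMP1 KO 1 (limma adjusted p = 0.005) and -0.51 ± 0.09 in TIMP1 KO 2 (adjusted p = 6e-05). SNRPA changed by -0.23 ± 0.08 (limma adjusted p = 0.027) and -0.64 ± 0.08 (adjusted p = 1.5e-06), and its fall in TIMP1 KO 1 was lost without WT replicates 1 or 3 or TIMP1 KO 1 replicates 1 or 2 (adjusted p of 0.07 to 0.11). Without CRISPR Control replicate 1, SNRNP70 was higher in CRISPR Control than in WT (log2 fold change 0.20, limma adjusted p = 0.035). Exons of SNRPA overlap those of ACTMAP on the opposite strand. SNRPC, which helps U1 bind the start of the intron, reached -0.63 ± 0.09 in TIMP1 KO 2 (limma adjusted p = 1.2e-05) and -0.16 ± 0.09 in TIMP1 KO 1 (adjusted p = 0.2).

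PRPF39 and PRPF40B, human counterparts of yeast U1 proteins, moved otherwise. PRPF39 was the only member higher in TIMP1 KO 2 than in WT. It had 522, 712 and 678 normalised counts in WT, 597, 560 and 462 in CRISPR Control, 646, 608 and 633 in TIMP1 KO 1, and 909, 822 and 804 in TIMP1 KO 2. The 3 TIMP1 KO 2 libraries lay above the 9 others, at a log2 fold change against WT of 0.42 ± 0.12 (limma adjusted p = 0.0053), and TIMP1 KO 1 was level with WT at -0.01 ± 0.12 (adjusted p = 0.97). PRPF39 shares exonic sequence with FKBP3 on the opposite strand. Without WT replicate 1 or CRISPR Control replicate 1, it was also lower in CRISPR Control than in WT (limma adjusted p = 0.011 and 0.039). PRPF40B had 402, 395 and 417 in WT, 299, 259 and 273 in CRISPR Control, 353, 420 and 450 in TIMP1 KO 1, and 318, 393 and 359 in TIMP1 KO 2. It had the lowest change of any member in CRISPR Control, -0.55 ± 0.11 (limma adjusted p = 0.00052), and the TIMP1 KO 1 libraries lay on both sides of those of WT.

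The U2 group held 11 members. Against WT, 7 (63.6%) were lower in TIMP1 KO 2 and 3 (27.3%) in TIMP1 KO 1, beside 27.9% and 17.5% of all genes. In CRISPR Control 0 were lower and 3 (27.3%) were higher, beside 26.3% and 27.2% of all genes. SF3B3, a scaffold subunit of SF3B, fell farthest. It had 9218, 8256 and 8749 normalised counts in WT, 8006, 7463 and 8047 in CRISPR Control, 6687, 6524 and 6509 in TIMP1 KO 1, and 5196, 4858 and 5426 in TIMP1 KO 2. No library of any line overlapped with the next, in the order WT, CRISPR Control, TIMP1 KO 1 and TIMP1 KO 2. Against WT its log2 fold change was -0.41 ± 0.07 in TIMP1 KO 1 (limma adjusted p = 9.8e-05) and -0.76 ± 0.07 in TIMP1 KO 2 (adjusted p = 2e-08), where it stood at 59.0% of the WT mean. In CRISPR Control it had -0.16 ± 0.07, just outside the threshold at an adjusted p of 0.058 in limma. It passed that threshold without WT replicate 2 (adjusted p = 0.038) or CRISPR Control replicate 1 (0.049) in limma, and with edgeR (0.038) and DESeq2 (0.047).

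SF3A3, a subunit of the SF3A trimer, had 5209, 5279 and 4857 normalised counts in WT, 4636, 5475 and 4863 in CRISPR Control, 4319, 4362 and 4166 in TIMP1 KO 1, and 3835, 3676 and 3772 in TIMP1 KO 2. WT and CRISPR Control overlapped each other, and both knockouts lay below them without overlap, TIMP1 KO 2 lowest. Its log2 fold changes were -0.26 ± 0.07 (limma adjusted p = 0.0081) and -0.44 ± 0.07 (adjusted p = 3.2e-05), and -0.04 ± 0.07 in CRISPR Control (adjusted p = 0.68). The other SF3A subunits, SF3A1 and SF3A2, passed in TIMP1 KO 2, at -0.24 ± 0.08 and -0.49 ± 0.10. SNRPA1 was lower in both knockouts and higher in CRISPR Control, while its partner SNRPB2 on U2 snRNA passed the threshold in none of the 7 comparisons.

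SF3B6, the subunit of SF3B that lies close to the branch point adenosine, stood apart. It had 2271, 2384 and 2299 normalised counts in WT, 3744, 4868 and 4151 in CRISPR Control, 2060, 2307 and 1967 in TIMP1 KO 1, and 2222, 2154 and 2324 in TIMP1 KO 2. The CRISPR Control libraries alone were high, at 184% of the WT mean, and the 3 other lines overlapped. The log2 fold change of CRISPR Control against WT was 0.87 ± 0.09 (limma adjusted p = 1.3e-07), the highest of any member. In TIMP1 KO 1 and TIMP1 KO 2 it was -0.14 ± 0.09 and -0.05 ± 0.09, neither past the threshold (limma adjusted p = 0.24 and 0.62). SF3B6 therefore also counted among the members lower in the averaged knockout lines (-0.53 ± 0.06), although those lines were near WT. SF3B1, the subunit that contacts the branch site, had -0.12 ± 0.07 in TIMP1 KO 2 against WT (limma adjusted p = 0.17). It was higher in CRISPR Control than in WT (0.19 ± 0.07, limma adjusted p = 0.027) and lower than CRISPR Control in TIMP1 KO 1 (-0.27 ± 0.07, adjusted p = 0.0029) and TIMP1 KO 2 (-0.31 ± 0.07, adjusted p = 0.00072).

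Of the 13 members of the tri-snRNP and the catalytic steps, 7 (53.8%) were lower than WT in TIMP1 KO 2 and 6 (46.2%) in TIMP1 KO 1. All genes had 27.9% and 17.5%. In CRISPR Control 4 were lower and 3 higher (30.8% and 23.1%), near the 26.3% and 27.2% of all genes. PRPF19, a ubiquitin ligase that helps activate the spliceosome, showed the largest fall of the group. It had 9419, 8099 and 8461 normalised counts in WT, 9963, 10150 and 11100 in CRISPR Control, 6061, 6073 and 6152 in TIMP1 KO 1, and 4568, 4833 and 5188 in TIMP1 KO 2. The 4 lines did not overlap, with CRISPR Control highest. Against WT the log2 fold changes were -0.50 ± 0.07 in TIMP1 KO 1 (limma adjusted p = 2.5e-05), -0.83 ± 0.07 in TIMP1 KO 2 (adjusted p = 1.8e-08) and 0.27 ± 0.07 in CRISPR Control (adjusted p = 0.005). Its level in TIMP1 KO 2 was 56.2% of the WT mean.

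SNRNP40, a U5 protein, had 3052, 2796 and 2798 normalised counts in WT, 2679, 3036 and 3156 in CRISPR Control, 2187, 2459 and 2406 in TIMP1 KO 1, and 1847, 1829 and 1862 in TIMP1 KO 2. Its 3 TIMP1 KO 2 values were close together and below the 9 others, with those of TIMP1 KO 1 between. The changes were -0.29 ± 0.08 (limma adjusted p = 0.0053) and -0.64 ± 0.08 (adjusted p = 9.7e-07). SNRNP200, the helicase that unwinds U4 from U6, had the highest count of the members, 22007, 19803 and 21514 in WT, 24762, 16948 and 20359 in CRISPR Control, 16713, 16690 and 17230 in TIMP1 KO 1, and 14470, 15161 and 14539 in TIMP1 KO 2. CRISPR Control was spread widely for SNRNP200 and its replicate 2 overlapped with TIMP1 KO 1, so this was the member of the intersection described below whose groups were not separate. It changed by -0.32 ± 0.10 in TIMP1 KO 1 (limma adjusted p = 0.015) and -0.52 ± 0.10 in TIMP1 KO 2 (adjusted p = 0.00019), and the former was lost without WT replicates 1 or 3 (adjusted p = 0.061 and 0.053). PRPF8, the scaffold of the catalytic centre, was lower than WT in all 3 edited lines, at -0.34 ± 0.11, -0.57 ± 0.11 and -0.31 ± 0.11 in TIMP1 KO 1, TIMP1 KO 2 and CRISPR Control (limma adjusted p = 0.019, 0.00019 and 0.021).

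The U4/U6 proteins differed among themselves. PRPF4 had 2890, 2706 and 2729 normalised counts in WT, 2948, 2860 and 2860 in CRISPR Control, 2342, 2293 and 2208 in TIMP1 KO 1, and 2436, 2306 and 2290 in TIMP1 KO 2. Both knockouts lay below the other lines and overlapped each other, at log2 fold changes of -0.28 ± 0.06 (limma adjusted p = 0.0022) and -0.24 ± 0.06 (adjusted p = 0.0039). Its partner PRPF3 passed in neither knockout and was lower in CRISPR Control (-0.31 ± 0.07, limma adjusted p = 0.0011). PRPF31, which joins U4/U6 to U5, had 2327, 2016 and 2050 in WT, 1489, 1719 and 1901 in CRISPR Control, 1907, 1803 and 1787 in TIMP1 KO 1, and 1258, 1320 and 1429 in TIMP1 KO 2. The TIMP1 KO 2 libraries were lowest without overlap, and those of TIMP1 KO 1 and CRISPR Control overlapped. It was lower than WT in TIMP1 KO 2 and in CRISPR Control, at -0.67 ± 0.09 (limma adjusted p = 4.1e-06) and -0.33 ± 0.09 (adjusted p = 0.0049). PRPF31 overlaps TFPT on the opposite strand, and its change in TIMP1 KO 1, -0.22 ± 0.09 (limma adjusted p = 0.07), passed without CRISPR Control replicates 1 or 3 (adjusted p = 0.033 and 0.044). PRPF6, which bridges U5 and U4/U6, PRPF18, a second-step factor, and the kinase PRPF4B passed in none of the 7 comparisons.

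PRPF38B, a factor of spliceosome activation, had 1033, 1316 and 1234 normalised counts in WT, 1006, 968 and 845 in CRISPR Control, 1121, 1192 and 1063 in TIMP1 KO 1, and 952, 933 and 871 in TIMP1 KO 2. CRISPR Control and TIMP1 KO 2 were both low and overlapped, at -0.34 ± 0.10 (limma adjusted p = 0.0058) and -0.37 ± 0.10 (adjusted p = 0.003). Its relative PRPF38A was higher in CRISPR Control (0.26 ± 0.07) and lower in TIMP1 KO 1 (-0.24 ± 0.07).

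Of the U11/U12 proteins, SNRNP25 and SNRNP48 were lower in TIMP1 KO 2, whereas SNRNP35 had 0.19 ± 0.12 there (limma adjusted p = 0.18). SNRNP25 had 2320, 2023 and 1968 normalised counts in WT, 2200, 2797 and 2697 in CRISPR Control, 1904, 1860 and 1713 in TIMP1 KO 1, and 1388, 1423 and 1665 in TIMP1 KO 2. The TIMP1 KO 2 libraries were lowest, and WT and CRISPR Control overlapped. Its change in TIMP1 KO 2 was -0.50 ± 0.10 (limma adjusted p = 0.00029). The rise in CRISPR Control, 0.28 ± 0.10 (limma adjusted p = 0.021), was lost without WT replicates 2 or 3 or CRISPR Control replicates 2 or 3 (adjusted p of 0.069 to 0.095).

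The LSM2-8 ring binds the end of U6 snRNA. Of its 7 members, 4 (57.1%) were lower in TIMP1 KO 2 than in WT, beside 27.9% of all genes. All 7 were lower there than in CRISPR Control, beside 34.4% of all genes. LSM2 had the lowest change of any member in TIMP1 KO 2 against WT, with 1570, 1584 and 1512 normalised counts in WT, 1246, 1490 and 1542 in CRISPR Control, 1316, 1334 and 1382 in TIMP1 KO 1, and 853, 897 and 843 in TIMP1 KO 2. The TIMP1 KO 2 libraries stood alone at 55.6% of the WT mean, or -0.85 ± 0.08 on the log2 scale (limma adjusted p = 7.1e-08). In TIMP1 KO 1, LSM2 had -0.21 ± 0.08 (limma adjusted p = 0.054), which passed without any 1 of the CRISPR Control libraries (adjusted p of 0.019 to 0.043) and with edgeR and DESeq2 (0.044 and 0.041).

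LSM3, which sits next to LSM2 in the ring, had 1227, 1190 and 1145 normalised counts in WT, 1852, 2616 and 1881 in CRISPR Control, 783, 987 and 892 in TIMP1 KO 1, and 891, 772 and 728 in TIMP1 KO 2. CRISPR Control lay above WT, and the knockouts, which overlapped, lay below it. The log2 fold changes against WT were 0.82 ± 0.12 (limma adjusted p = 1.4e-05) in CRISPR Control, -0.43 ± 0.12 (adjusted p = 0.0091) in TIMP1 KO 1 and -0.58 ± 0.12 (adjusted p = 0.00045) in TIMP1 KO 2. Without replicate 1 of TIMP1 KO 1, its change there was -0.34 (limma adjusted p = 0.061). LSM8, the subunit that sets the nuclear ring apart from the cytoplasmic one, was level with WT in both knockouts (0.02 ± 0.10 and -0.03 ± 0.10) and higher in CRISPR Control (0.40 ± 0.10, limma adjusted p = 0.0034). LSM1, which takes its place in the cytoplasmic ring of mRNA decay, passed in none of the 7 comparisons.

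LSM11 and LSM10 form, with Sm proteins, the ring of the U7 snRNP, which processes histone pre-mRNA. LSM11 had the lowest length-scaled level in WT, 29.6 normalised counts per kb. It was measured at 143, 203 and 238 normalised counts in WT, 331, 283 and 291 in CRISPR Control, 154, 142 and 141 in TIMP1 KO 1, and 128, 102 and 126 in TIMP1 KO 2. CRISPR Control was highest without overlap and TIMP1 KO 2 lowest, while WT replicate 1 lay among the TIMP1 KO 1 libraries. Against WT it changed by 0.66 ± 0.16 in CRISPR Control (limma adjusted p = 0.0023) and -0.68 ± 0.16 in TIMP1 KO 2 (adjusted p = 0.0016). The change in TIMP1 KO 1, -0.38 ± 0.16, had an adjusted p of 0.077 in limma and passed without WT replicate 1 (0.0069), with edgeR (0.04) and with DESeq2 (0.037). LSM10 was lower in TIMP1 KO 1 at the edge of the threshold (-0.23 ± 0.09, limma adjusted p = 0.047) and not past it in TIMP1 KO 2.

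LSM14A and LSM14B are RNA-binding proteins of cytoplasmic granules and not snRNP subunits. LSM14B had 3152, 3003 and 3175 normalised counts in WT, 2872, 2788 and 2991 in CRISPR Control, 2706, 2762 and 2659 in TIMP1 KO 1, and 2334, 2507 and 2419 in TIMP1 KO 2. The knockout libraries lay below the others, TIMP1 KO 1 by a narrow margin of 2762 against 2788. Its log2 fold changes were -0.20 ± 0.06 (limma adjusted p = 0.022) and -0.36 ± 0.06 (adjusted p = 0.00011), and the former was lost without WT replicates 1 or 3 or TIMP1 KO 1 replicates 1 or 3 (adjusted p of 0.062 to 0.084). LSM14A was higher in CRISPR Control (0.35 ± 0.06) and lower in TIMP1 KO 2 (-0.31 ± 0.06).

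**Figure D3:**
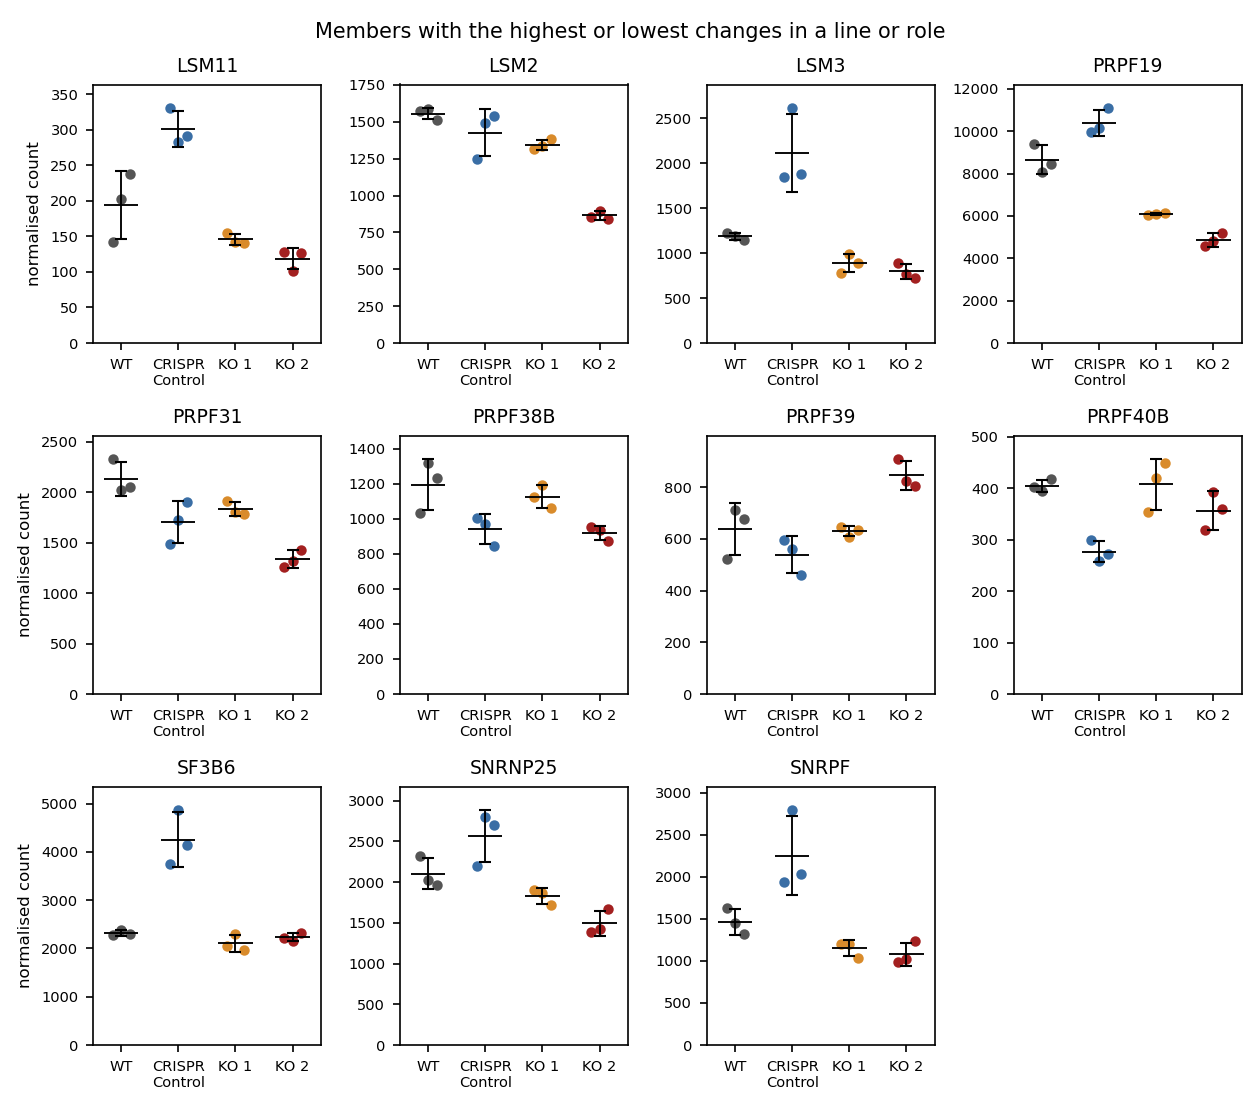
Normalised counts per library (points), with the mean and SD of each line (n = 3), for the 11 members outside the intersection that had the highest or lowest changes past the threshold in a line or role. LSM3, SF3B6, LSM11 and SNRPF are highest in CRISPR Control, PRPF39 is highest in TIMP1 KO 2, and LSM2 is lowest in TIMP1 KO 2, with TIMP1 KO 1 also below WT.

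The intersection, the rule by which the study defined its TIMP1-dependent genes with a condition on direction added, took members past the threshold against WT in both knockout lines and not in CRISPR Control. It held 10 members, all lower, LSM14B, PRPF4, SF3A3, SF3B3, SNRNP200, SNRNP40, SNRNP70, SNRPA, SNRPD1 and SNRPD3, which is 18.5% of the members against 5.18% of all tested genes. For 9 of the 10, all 6 knockout libraries lay below the 6 others, as for 12.4% of all tested genes. The 10 were picked by calls on the same libraries, which favours such a gap, so no conclusion is drawn from the 9. The count was 6 without WT replicate 1, WT replicate 3 or TIMP1 KO 1 replicate 1. PRPF4, SF3A3 and SNRNP40 were the 3 that remained whichever library was left out. With DESeq2 on the recovered reads the intersection held 11 members, without SF3B3 and with LSM2 and SF3B2. Some members were lower than WT in both knockouts but past the threshold in CRISPR Control, and so did not enter the intersection. These were PRPF19, LSM3, LSM12, SNRPA1 and SNRPF, higher in CRISPR Control, and PRPF8, lower there.

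**Figure D4:**
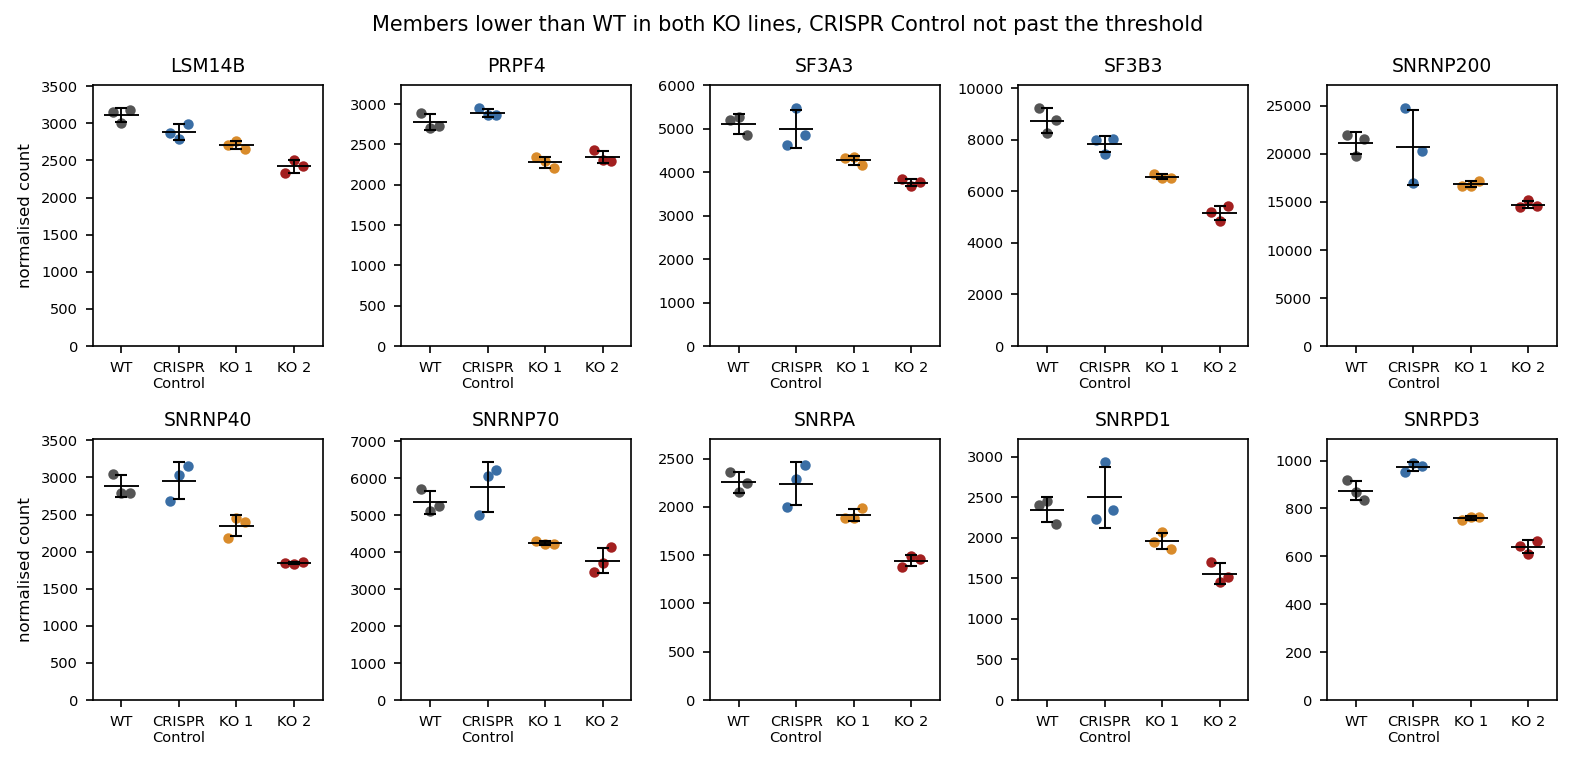
Normalised counts per library (points) with the mean and SD of each line (n = 3) for the 10 members lower than WT in both knockout lines and not past the threshold in CRISPR Control. TIMP1 KO 2 lies below TIMP1 KO 1 except for PRPF4, and CRISPR Control replicate 2 of SNRNP200, at 16948, falls within the TIMP1 KO 1 libraries.

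The knockout lines were also compared with each other. TIMP1 KO 2 was lower than TIMP1 KO 1 in 21 members and higher in 1, PRPF39, against a background of 20.1% lower and 18.1% higher. The median member stood at a log2 fold change of -0.19, against -0.01 for all genes. With quantile normalization the members had -0.13 and all genes -0.05, so that their distance shrank from -0.17 to -0.08. Among the 21 were 6 of 8 Sm ring members, and the largest difference was that of LSM2, -0.64 ± 0.08 (limma adjusted p = 6.2e-06). Of 18 members lower than WT in TIMP1 KO 2 and not past the threshold in TIMP1 KO 1, 14 passed this test of the difference. The 18 were picked by calls on the same knockout libraries, which favours such a difference, so no conclusion is drawn from the 14. With libraries scaled to equal totals, 11 members were lower and 3 higher in TIMP1 KO 2 than in TIMP1 KO 1. All genes then had 12.7% lower and 24.3% higher, and the medians were -0.09 for members and 0.09 for all genes. The count past the threshold was 13 without TIMP1 KO 1 replicate 2 and 14 without TIMP1 KO 2 replicate 2, against 22 with all libraries. Lower among them were 12 and 13 of the 54 members, beside 16.4% and 16.3% of all genes. The 12 division markers were all lower in TIMP1 KO 2 than in TIMP1 KO 1, and their part in this difference was not tested.

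Partner genes of the snRNPs were counted from lists of general knowledge. Of 27 genes of snRNP assembly, which load the Sm ring on snRNA and return the particle to the nucleus, 19 were lower and 0 higher than WT in TIMP1 KO 2, 10 lower and 1 higher in TIMP1 KO 1, and 8 lower and 9 higher in CRISPR Control. The shares in CRISPR Control, 29.6% and 33.3%, were near the 26.3% and 27.2% of all genes, and those of all genes were 27.9% lower and 27.1% higher in TIMP1 KO 2 and 17.5% and 18.0% in TIMP1 KO 1. The medians of the list were -0.40, -0.19 and 0.03. SMN1 and SMN2, near-identical copies that encode the SMN protein at the heart of the loading complex, had the lowest changes between knockout and other lines. SMN1 averaged 319 ± 21.7 normalised counts in WT (SD, n = 3), 468 ± 52.4 in CRISPR Control, 241 ± 23.5 in TIMP1 KO 1 and 220 ± 4.95 in TIMP1 KO 2, and SMN2 averaged 68.5 ± 15.7, 136 ± 21, 46.3 ± 6.02 and 44.9 ± 7.04. All 6 knockout libraries lay below the others for each copy. Reads of the copies can hardly be told apart, so how they divide is uncertain.

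Of 41 other snRNP subunits and step factors, 20 were lower and 3 higher in TIMP1 KO 2, 14 and 4 in TIMP1 KO 1, and 2 and 16 in CRISPR Control, with medians of -0.16, -0.09 and 0.17. As shares these were 48.8% and 7.32%, 34.1% and 9.76%, and 4.88% and 39.0%. The shares of all genes were 27.9% and 27.1%, 17.5% and 18.0%, and 26.3% and 27.2%. EFTUD2, the GTPase of U5, was lower than WT in TIMP1 KO 2 (-0.50 ± 0.07, limma adjusted p = 6.2e-06) and in CRISPR Control (-0.53 ± 0.07, adjusted p = 3.9e-06). PPIH, a prolyl isomerase of the U4/U6 particle, and U2AF2, which binds the polypyrimidine tract, changed by -0.65 ± 0.08 and -0.64 ± 0.05 between knockout and other lines (limma adjusted p = 5.5e-07 and 2.2e-09). The second-step factor SLU7 was higher in both knockouts, at 0.34 ± 0.09 in each (limma adjusted p = 0.0061 and 0.0037). CRNKL1, a scaffold protein of the active spliceosome, was higher in TIMP1 KO 1 (0.26 ± 0.08, limma adjusted p = 0.021) and had 0.14 ± 0.08 in TIMP1 KO 2 (adjusted p = 0.15).

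Of 10 partners of LSM proteins in mRNA decay and histone mRNA processing, 7 were lower and 1 higher in TIMP1 KO 2, 5 and 1 in TIMP1 KO 1, and 2 and 2 in CRISPR Control. All genes had 27.9% and 27.1%, 17.5% and 18.0%, and 26.3% and 27.2%. In a list of only 10 genes, the CRISPR Control shares of 20% each were near the background. The decapping factors PATL1, which binds the LSM1-7 ring, and EDC4 were lower in both knockouts, while the exonuclease XRN1 was higher in both (0.38 ± 0.13 and 0.34 ± 0.13, limma adjusted p = 0.026 and 0.029). DCP1B, a decapping cofactor, was lower in CRISPR Control (-0.91 ± 0.14, limma adjusted p = 3.5e-05) and past the threshold in neither knockout against WT. The snRNAs themselves could not be followed: of 22 listed snRNA genes, all had a mean under 10 normalised counts and 10 were at 0 reads.

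The promoters of the members were read to see what they share beyond the symbols. RefSeq promoters of GRCh38.p14, from 250 bases before to 50 bases after the start site, were given for 44 of the 54 members. The 7-letter core of ETS-family binding sites, CCGGAAG, searched on both strands, was in 19 of the 44 (43.2%), in 10.7% of all 27305 promoters and in 18.4% of the 10822 promoters of tested genes. Of the 19 members with the core, 12 were lower in TIMP1 KO 2 than in WT, with a median log2 fold change of -0.33, and of the 25 without it, 19 were lower, with a median of -0.45. The CCAAT box (CCAAT) was in 45.5% of members and 35.7% of all promoters, and the GC box (GGGCGG) in 63.6% and 44.6%, or 70.4% of promoters of tested genes. Of 28 members with the GC box, 22 were lower in TIMP1 KO 2 (median -0.44), and of 16 without it, 9 were lower (median -0.29). The E-box (CACGTG) was in 4.55% of members and 10.1% of promoters of tested genes. The TATA box (TATAAA) was in 1 member. The E2F-like motif GCGGGAA was in 6 members (13.6%, against 10.4% of promoters of tested genes), and these 6 were lower in TIMP1 KO 2, as were 25 of the 38 without it. None of these splits was tested. A match is a description of the letters and not evidence of binding.

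Promoters of 3 members with the core are printed, 5′ to 3′ on the strand of the gene, with CCGGAAG or its reverse complement CTTCCGG in capitals. SF3A3 (chr1:37989973-37990272, minus strand) and SNRNP200 (chr2:96305497-96305796, minus strand) were lower in both knockouts. SF3B6 (chr2:24076277-24076576, minus strand), high in CRISPR Control alone, held the most copies of any member, 3.
SF3A3: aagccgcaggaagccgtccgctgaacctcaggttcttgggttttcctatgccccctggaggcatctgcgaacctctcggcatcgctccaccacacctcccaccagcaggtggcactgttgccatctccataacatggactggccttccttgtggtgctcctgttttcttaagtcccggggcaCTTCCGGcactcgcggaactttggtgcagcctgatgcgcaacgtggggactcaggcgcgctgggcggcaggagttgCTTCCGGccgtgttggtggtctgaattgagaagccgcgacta
SNRNP200: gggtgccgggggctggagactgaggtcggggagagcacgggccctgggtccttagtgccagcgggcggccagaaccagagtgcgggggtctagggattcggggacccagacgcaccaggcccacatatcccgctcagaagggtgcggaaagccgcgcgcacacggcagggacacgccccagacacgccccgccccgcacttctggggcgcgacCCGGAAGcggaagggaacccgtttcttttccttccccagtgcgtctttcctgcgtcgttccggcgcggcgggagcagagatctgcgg
SF3B6: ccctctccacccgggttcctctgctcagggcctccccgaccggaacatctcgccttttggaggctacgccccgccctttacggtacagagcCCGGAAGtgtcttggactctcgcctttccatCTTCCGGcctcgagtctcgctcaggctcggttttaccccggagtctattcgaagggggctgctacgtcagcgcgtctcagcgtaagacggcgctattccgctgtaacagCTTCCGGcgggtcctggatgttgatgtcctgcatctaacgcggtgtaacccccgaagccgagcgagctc
The copies of SF3A3 begin 68 bases before the start site and at base 9 of the transcript. That of SNRNP200 begins 37 bases before it, and those of SF3B6 begin 159, 128 and 19 bases before it.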

How the data were processed

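RNA had been isolated with a column kit and sequenced as paired reads. As stated in the methods, the authors trimmed reads with Cutadapt, aligned them to GRCh38 using STAR and tallied them by gene using featureCounts. They then scaled every library with size factors from DESeq2, so the deposited signal is a read count on a scale shared by the libraries (normalised count). The strand setting and annotation release are not given in the sources used here. Every positive value was a whole multiple of 1 read within 0.01 reads, which gave the depth and the reads for count tests. The 4 columns of the authors' line means were not used, and 1 blank line was left out. Coordinates and overlaps are from GENCODE release 44, in which 99.1% of the gene identifiers were found without their version.

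limma 3.58.1 (R 4.3.3, lmFit, contrasts.fit, eBayes with trend) was run on log2(normalised count + 1) over all genes with a mean of at least 10, all 12 libraries and 4 line means. Tests were two-sided and adjusted by the Benjamini-Hochberg method over 15987 genes, with a threshold of 0.05. Fold changes are on that log2 scale with the limma SE, and understate changes of low genes. The code was tested on simulated counts. Alternatives were other scalings (equal totals, quantile, TMM), a pseudocount of 10, no filter, a minimum mean of 50, a replicate block, only the lines compared, each library left out, a minimum effect of 0.5, and edgeR 4.0.16 and DESeq2 1.42.0 on recovered reads. Replicate numbers did not pair the libraries. Values in every library are given for the intersection, the member of each role with the largest change between knockout and other lines, the 3 highest and 3 lowest changes of each line against WT, and SNRPB as the paralogue of SNRPN, chosen after its values were seen. Of each partner list, the 2 highest and 2 lowest changes are named, with EFTUD2 and TIMP1. The members, lists and rules were chosen with earlier results of these data known. No set test was run. Values of 1 member are not reported here, and it is included in the counts.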

Additional observations from a re-analysis of the deposited data

Results flagged for a closer look

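For 22 of the 54 members, the change against WT differed between the knockout lines, as tested by TIMP1 KO 2 against TIMP1 KO 1 (limma, adjusted p under 0.05). Of all 15987 genes tested, 6100 passed the same test, which is a similar share. By direction, 38.9% of members were lower and 1.85% higher, beside 20.1% and 18.1% of all genes. Values are the log2 fold change of TIMP1 KO 2 minus that of TIMP1 KO 1. In the Sm ring the difference was -0.46 for SNRPB, -0.45 for SNRPG, -0.38 for SNRPE, -0.33 for SNRPD1, -0.30 for SNRPD2 and -0.25 for SNRPD3. Of the U1 proteins, it was -0.47 for SNRPC and -0.41 for SNRPA, and PRPF39 was the exception in sign at 0.42. In the U2 group it was -0.35 for SF3B3, -0.29 for SF3B4 and -0.19 for SF3A3. In the tri-snRNP and catalytic group it was -0.46 for PRPF31, -0.35 for SNRNP40, -0.33 for PRPF19 and -0.29 for PRPF38B. The U11/U12 proteins SNRNP48 and SNRNP25 had -0.44 and -0.29. Among LSM proteins it was -0.64 for LSM2, -0.41 for LSM4, -0.31 for LSM7 and -0.19 for LSM14A.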

How the results depend on the processing

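Counts are of members past the threshold. With a minimum effect of 0.5 on the log2 scale, they fell to 1 (TIMP1 KO 1 against WT), 17 (TIMP1 KO 2 against WT), 5 (CRISPR Control against WT), 10 and 22 (TIMP1 KO 1 and TIMP1 KO 2 against CRISPR Control), 1 (TIMP1 KO 2 against TIMP1 KO 1), 8 (knockout lines against WT and CRISPR Control) and 0 (intersection), by construction. Shares of all genes at this minimum effect were not counted. For TIMP1 KO 1 against WT the count of 18 became 11 with no filter, where more genes were tested and 7.4% of them were lower. With only the lines compared it became 28, and the intersection held 17 in place of 10. For TIMP1 KO 2 against TIMP1 KO 1, equal library totals gave 14 in place of 22, with 78.6% lower against 95.5%. Of all genes, 12.7% were then lower and 24.3% higher. The cause of the changes with only the lines compared and with equal totals was not tested. With 1 library left out, the ranges were 8 to 21 for TIMP1 KO 1 and 34 to 37 for TIMP1 KO 2 against WT, 18 to 25 for CRISPR Control against WT, 26 to 33 and 40 to 46 for TIMP1 KO 1 and TIMP1 KO 2 against CRISPR Control, 13 to 25 for TIMP1 KO 2 against TIMP1 KO 1, 38 to 43 for the averaged lines and 6 to 13 for the intersection.

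For TIMP1 KO 2 against CRISPR Control, equal totals put the all-gene median at 0.11, and the members lay -0.38 from it. edgeR and DESeq2 gave 20 and 21 members for TIMP1 KO 1 and 35 each for TIMP1 KO 2 against WT. A replicate block gave 16, 35 and 22 for TIMP1 KO 1, TIMP1 KO 2 and CRISPR Control against WT and 9 for the intersection. Same-numbered libraries of different lines correlated with r of -0.129 to 0.16 in their deviations, so the numbers were not used as pairs. No call reversed its direction under any of these settings. With equal totals PRPF4 no longer passed in TIMP1 KO 2 (limma adjusted p = 0.063), and SF3A3 and SNRNP40 were the 2 intersection members that remained under each alternative other than the minimum effect. With 3 libraries a line, p-values measure the spread between cultures of 1 line.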
